A study of Mus musculus with 8 samples.

Results

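Transcripts of 8 enzymes of cholesterol synthesis were followed in pancreatic islets of Tcf1 knock-out mice and wild type mice. The enzymes were Hmgcs1, Idi1, Fdps, Fdft1, Sqle, Lss, Cyp51 and Msmo1, and every probe set annotated to them by a current or older symbol was taken. They have 14 of the 24965 probe sets of the series, 11 on the Affymetrix array type MG-U74A and 3 on MG-U74B. Total islet RNA of 2 knock-out and 2 wild type replicates, which the design text calls biological, was hybridised to each array type, 8 arrays in all. Tcf1 is named here as the labels name it. The kind of allele, the age and strain of the mice and the number of animals behind a replicate were not given in the sources used here. The targeted gene itself was not analysed here. Genotypes are therefore taken from the labels alone.

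Cells build cholesterol from acetyl-CoA. The early enzymes make mevalonate and turn it into isoprenoid diphosphates, which also feed protein prenylation and ubiquinone. The later enzymes join farnesyl diphosphate into squalene, close it into the sterol ring and trim the ring to cholesterol. Most genes of the pathway are induced together by the sterol regulatory element-binding proteins (SREBPs), membrane-bound factors that are escorted and cleaved when sterols are low and that act with nuclear factor Y. In beta cells the cholesterol content of membranes is known to affect insulin granules and insulin release.

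Deposited values were linear intensities, scaled by the authors to a trimmed mean of 250.1 to 250.2, with 18.4% to 26.7% of the values of an array below 0. The signal of the 3' control probe set of Gapdh over that of the 5' one, which is higher where labelled RNA is less complete, was 0.943 ± 0.00849 in knock-out and 3.19 ± 0.0499 in wild type on MG-U74A (SD, n = 2 each). On MG-U74B it was 0.907 ± 0.00964 in knock-out and 3.10 ± 0.0382 in wild type. For Actb it was 1.14 ± 0.0269 in knock-out and 1.46 ± 0.0157 in wild type on MG-U74A, and on MG-U74B it was 1.18 and 1.13 on the knock-out arrays and 1.45 and 1.48 on the wild type arrays. The arrays held transcripts of the labelled tissue and of other cells, and their amounts differed by genotype. On MG-U74A 7 of 7 tested islet endocrine markers were lower in knock-out, with summed intensities of 3017 to 3253 in knock-out and 18788 to 18925 in wild type. All 5 tested acinar markers were lower as well (4207 to 4679 in knock-out, 34938 to 35167 in wild type). Higher were 6 of 7 lymphocyte markers (19640 to 20703 in knock-out, 4040 to 4109 in wild type), 7 of 7 tested macrophage markers (9210 to 9323 in knock-out, 2001 to 2055 in wild type), 5 of 6 fibroblast markers (14844 to 15885 in knock-out, 4265 to 4350 in wild type) and 5 of 5 endothelial markers (1899 to 1962 in knock-out, 1252 to 1283 in wild type). The macrophage sums also hold Adgre1, which was too low to be tested (-3.2 and 12.9 in knock-out, 17.1 and 17.0 in wild type). Of 3 tested fat cell markers 1 was lower, Lpl, with 467 and 450 in knock-out and 1430 and 1396 in wild type. Lpl made up most of the summed intensities of that list (694 to 823 in knock-out, 1664 to 1706 in wild type). Adipoq (0.28 ± 0.21, adjusted p = 0.324) and Fabp4 (0.04 ± 0.22, adjusted p = 0.902) did not pass the test. Of these markers, the B cell gene Cd79a was at or below 0 on both wild type arrays, and none was so on both knock-out arrays. Among the called markers Cd79a, Cd3d, Ptprc, Thy1 and Icam2 passed the filter on low mean intensity only through the knock-out arrays. Clps did so only through the wild type arrays. That filter favours the direction seen in these markers. On MG-U74A 29.0% of all tested probe sets were lower and 23.9% higher. MG-U74B held 1 of the markers, the endocrine gene Neurod1, with 277 and 235 in knock-out and 1022.5 and 1079.7 in wild type (-1.94 ± 0.17, adjusted p = 0.00751). The part of these differences and of the Gapdh and Actb ratios in the results below was not tested, and fewer cells of a type cannot be told apart from less RNA per cell.

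Promoter windows from RefSeq (GRCm38.p6), running from 250 bases before to 50 after the gene start, were at hand for 5 of the 8 genes (Hmgcs1, Idi1, Lss, Cyp51 and Msmo1). They were searched on both strands for TCACNCCAC, a form of the sterol regulatory element, and for CCAAT, the nuclear factor Y motif (ATTGG on the other strand). These motifs did not overlap in any of the 5 windows. Hmgcs1 is shown because it was the 1 member of 5 with the first motif, which 1.24% of 32851 such windows held. Msmo1 is shown for its largest fall among the tested members, and Lss as another member that fell. Capitals mark the motifs. The windows lie at chr13:119690101-119690400 on the plus strand (Hmgcs1), chr8:64733529-64733828 on the minus strand (Msmo1) and chr10:76531355-76531654 on the plus strand (Lss).
Hmgcs1: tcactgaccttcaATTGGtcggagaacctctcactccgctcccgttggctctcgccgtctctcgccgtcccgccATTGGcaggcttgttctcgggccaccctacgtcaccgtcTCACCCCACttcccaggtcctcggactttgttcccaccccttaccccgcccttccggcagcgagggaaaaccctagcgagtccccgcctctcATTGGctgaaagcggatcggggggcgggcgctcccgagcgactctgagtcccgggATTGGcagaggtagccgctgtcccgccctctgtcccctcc
Msmo1: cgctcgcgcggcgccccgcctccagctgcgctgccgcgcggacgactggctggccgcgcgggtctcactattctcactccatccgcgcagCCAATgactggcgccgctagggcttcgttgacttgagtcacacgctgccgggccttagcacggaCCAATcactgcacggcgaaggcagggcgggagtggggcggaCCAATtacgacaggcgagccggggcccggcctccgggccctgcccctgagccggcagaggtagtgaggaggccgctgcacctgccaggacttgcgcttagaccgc
Lss: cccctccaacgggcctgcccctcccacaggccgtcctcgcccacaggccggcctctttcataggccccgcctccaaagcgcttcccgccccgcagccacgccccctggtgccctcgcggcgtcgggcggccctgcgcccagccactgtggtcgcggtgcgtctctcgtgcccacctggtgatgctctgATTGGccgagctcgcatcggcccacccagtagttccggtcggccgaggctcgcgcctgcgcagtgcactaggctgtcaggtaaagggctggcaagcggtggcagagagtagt
In Hmgcs1 the sterol element spans bases -137 to -129 from the gene start, with 4 CCAAT motifs around it. Msmo1 has 3 CCAAT motifs, which begin at -160, -96 and -55, and Lss has 1, at -62 to -58. All 5 windows held CCAAT, as did 37.4% of all windows, and 2 of 5 held it at least 3 times, as did 3.37% of all windows. A match describes the letters only and does not show a bound site.

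On MG-U74A, where all 8 genes have a probe set, 5 enzymes fell in knock-out islets, 1 rose and 2 did not pass the test. Those that fell were Msmo1, Sqle, Lss and Fdft1 of the sterol-forming steps and, by a small amount, Hmgcs1 at the start of the pathway. Fdps, at the branch point between them, rose on both of its tested probe sets. By probe set, 5 of 9 tested were lower and 2 were higher, beside 29.0% and 23.9% of all 7516 tested probe sets of that array type, of which 52.9% changed in either direction. The median log2 change of the 8 genes was -0.44, with the brightest tested probe set standing for a gene, against -0.09 over all tested probe sets. For all 9 the knock-out arrays lay outside the wild type arrays, as they did for 79.1% of tested probe sets, so the separation of the arrays is common on this array type. The test was limma's moderated test on log2(intensity + 25) with a Benjamini-Hochberg adjusted p threshold of 0.05 over all tested probe sets, and changes are knock-out minus wild type with their standard error.

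**Figure D1:**
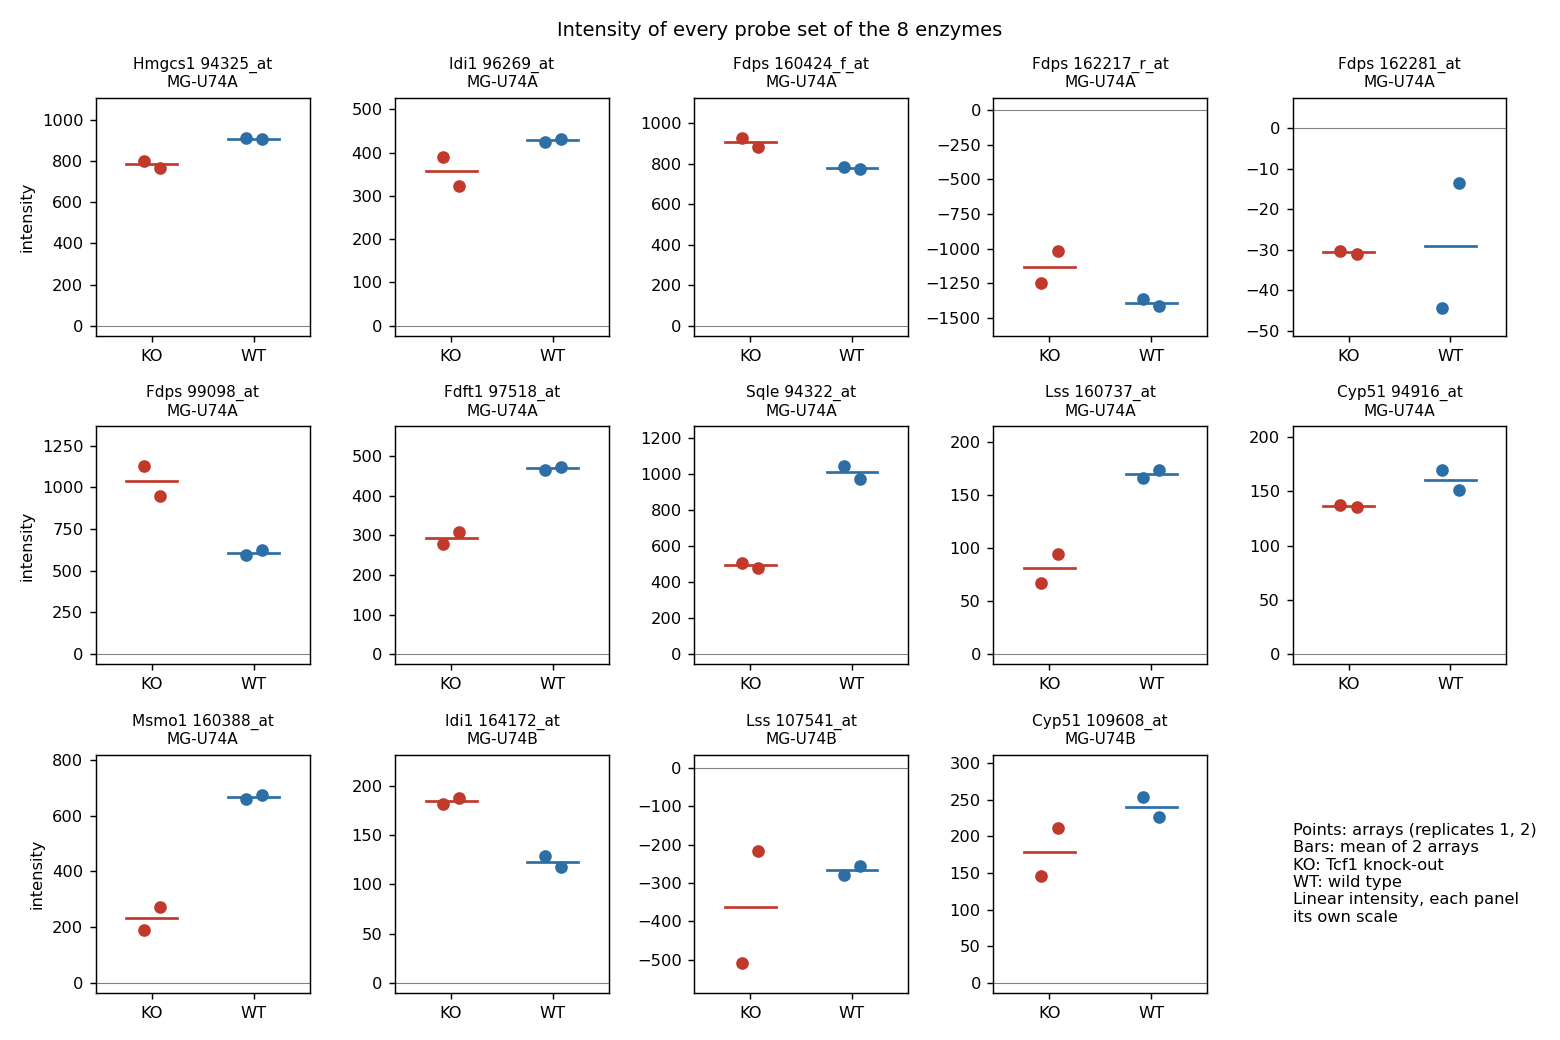
Linear intensity (vertical axis, each panel on its own scale) of the 14 probe sets of the 8 enzymes, with knock-out (KO) left of wild type (WT); points are single arrays and bars are means of 2 arrays. Msmo1, Sqle, Lss and Fdft1 show both knock-out arrays below both wild type arrays, Fdps 99098_at shows the opposite order, and 3 panels lie below 0 throughout.

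Hmgcs1, which condenses acetyl-CoA and acetoacetyl-CoA into HMG-CoA, had intensities of 802 and 769 in knock-out islets and 912 and 906 in wild type islets. Both knock-out arrays were below both wild type arrays, by a margin that was small beside the level. The log2 change was -0.21 ± 0.05 (adjusted p = 0.0259). This call ended with quantile normalization (adjusted p = 0.0550), without a variance trend (0.0814), and without wild type replicate 1 (0.166) or 2 (0.156). Hmgcs1 had one of the smaller changes among the members, and its window holds the sterol element shown above. Whether motif and change are related was not tested, and Fdps, Fdft1 and Sqle had no window.

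Idi1 isomerises isopentenyl diphosphate to dimethylallyl diphosphate, the starter of isoprenoid chains. On MG-U74A it had 390.3 and 323 in knock-out islets, against 425 and 432 in wild type islets. The knock-out arrays were the lower ones but differed more from each other than the wild type arrays did, and the change of -0.25 ± 0.11 did not pass the threshold (adjusted p = 0.123, 95% interval -0.55 to 0.05). Without knock-out replicate 1 it passed (-0.38, adjusted p = 0.0215). On MG-U74B the order was opposite, with 182 and 188 in knock-out and 128 and 117 in wild type, and the change of 0.51 ± 0.32 did not pass either (adjusted p = 0.316, 95% interval -0.32 to 1.33). The array types give Idi1 no settled direction.

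Fdps makes geranyl and farnesyl diphosphate, from which sterol synthesis, prenylation and dolichol synthesis branch. Probe set 99098_at had 1127 and 947 in knock-out islets and 597 and 623 in wild type islets. Both knock-out arrays were well above both wild type arrays, and the log2 change was 0.74 ± 0.10 (adjusted p = 0.00575), the only rise above 0.5 among tested probe sets of the 8 enzymes on MG-U74A. Probe set 160424_f_at, whose suffix marks probes shared with related sequences, had 927 and 884 in knock-out and 785 and 771 in wild type. It changed in the same direction but by less, 0.21 ± 0.05 (adjusted p = 0.0270), and this call ended without a variance trend (adjusted p = 0.0806) and without wild type replicate 1 (0.140) or 2 (0.172). The remaining Fdps probe sets gave no usable level. 162217_r_at was between -1245 and -1018 in knock-out and between -1410 and -1365 in wild type, and 162281_at was at -30.3 and -30.9 in knock-out and at -44.4 and -13.5 in wild type, so neither was tested.

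Fdft1, squalene synthase, commits farnesyl diphosphate to sterols. Its intensities were 279 and 308 in knock-out islets and 466 and 472 in wild type islets. The groups did not overlap, and the log2 change was -0.63 ± 0.08 (adjusted p = 0.00498), a 1.60-fold lower mean in knock-out. The adjusted p was 0.0501 without wild type replicate 2, with a change of -0.62.

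Sqle, squalene epoxidase, is a rate-controlling oxygen-dependent step. It had 505 and 480.0 in knock-out islets and 1041 and 973 in wild type islets. Each knock-out array was near the other and far below wild type. The mean was 2.04-fold lower in knock-out, with a log2 change of -0.995 ± 0.062 (adjusted p = 7.74e-04). This was the smallest adjusted p of the members, and it stayed past the threshold under all 12 alternative settings, at adjusted p of 6.67e-04 to 0.0120.

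Lss, lanosterol synthase, closes the sterol ring from squalene epoxide. On MG-U74A it had 67.7 and 94.6 in knock-out islets against 166 and 174 in wild type islets. The knock-out arrays were spread more widely but stayed below wild type, and the log2 change was -0.89 ± 0.19 (adjusted p = 0.0201). At intensities this low the added constant of 25 shrinks the log2 change. The call ended with no filter on low values (adjusted p = 0.0654, with the same change) and without wild type replicate 1 (-0.92, adjusted p = 0.104) or 2 (-0.86, adjusted p = 0.120). Its MG-U74B probe set, 107541_at, was below 0 on all 4 arrays (-508 and -216 in knock-out, -279 and -255 in wild type) and was not tested.

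Cyp51, a cytochrome P450, removes a methyl group from lanosterol. On MG-U74A it had 138 and 135 in knock-out islets and 169 and 151 in wild type islets. The knock-out values were lower, but the change of -0.20 ± 0.13 did not pass the threshold (adjusted p = 0.257, 95% interval -0.55 to 0.15). On MG-U74B another probe set had 145 and 211 in knock-out and 254 and 226 in wild type, a change of -0.40 ± 0.31 that did not pass (adjusted p = 0.401, 95% interval -1.20 to 0.40). Both probe sets had the same sign, and their intervals also leave room for no change.

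Msmo1, formerly Sc4mol, oxidises methyl groups of the ring in the step after Cyp51 and the following reductase. It had 189 and 273 in knock-out islets and 661 and 674 in wild type islets. The knock-out arrays differed from each other by more than the wild type arrays did, yet both were far below wild type. The mean was 2.89-fold lower in knock-out, with a log2 change of -1.45 ± 0.18 (adjusted p = 0.00451), the largest of the members. Of all tested probe sets on MG-U74A 4.99% had a lower change. All 12 alternative settings kept the call, with log2 changes of -1.69 to -1.22.

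Set against the whole array type, the members were not at the edge of the distribution. Msmo1 lay furthest out, with 4.99% of tested probe sets having a lower log2 change and 88.1% a change of smaller size. The share of tested probe sets with a lower log2 change was 11.7% for Sqle, 14.3% for Lss and 22.2% for Fdft1. It was 40.7% for Idi1, 43.3% for Hmgcs1 and 43.8% for Cyp51, which lie in the middle. Fdps stood at 66.2% and 83.7% on its 2 tested probe sets. Of the 5 enzymes from Fdft1 onward 4 were lower with changes of -0.63 to -1.45, and among the 3 before it 1 was lower, by 0.21, and 1 higher. Among all tested probe sets 29.0% were lower and 23.9% higher. Of 8 other pathway genes tested on the same array type, given below, 0 were lower and 1, Lbr, was higher. The difference between the stretches before Fdft1 and from Fdft1 onward was not tested.

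**Figure D2:**
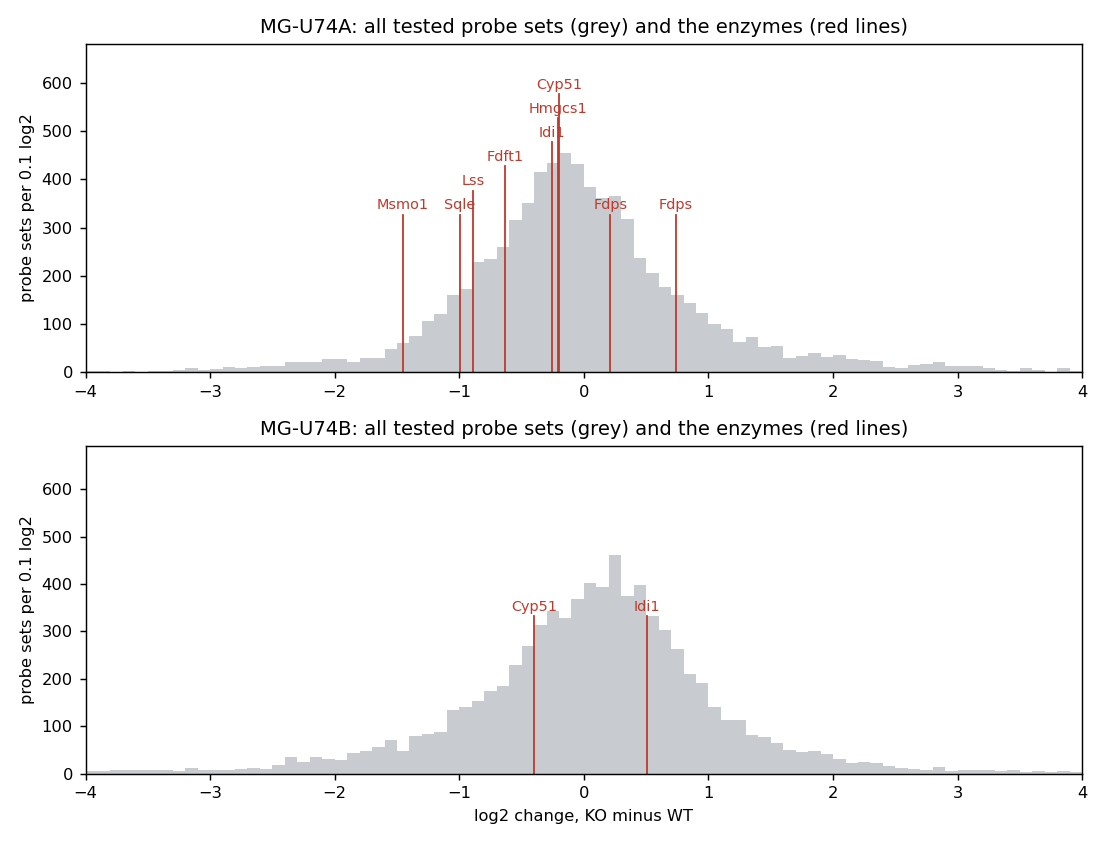
Number of tested probe sets (vertical axis) per 0.1 of log2 change, knock-out minus wild type (horizontal axis), on each array type, with red lines at the tested probe sets of the enzymes (line heights carry no value); 57 on MG-U74A and 63 on MG-U74B lie beyond 4 in size and are outside the axis. Msmo1 at -1.45 lies in the left tail and Hmgcs1, Idi1 and Cyp51 lie near the centre of MG-U74A.

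MG-U74B carried 3 member probe sets, of which 2 were tested, for Idi1 and Cyp51. Neither was called by limma (0 of 2 at adjusted p under 0.05 and 0 of 2 at an unadjusted p under 0.05), beside 17.5% of all 7861 tested probe sets, with 8.59% higher and 8.87% lower. In both the knock-out arrays lay outside the wild type arrays, as in 65.0% of tested probe sets. The standard errors of Idi1 and Cyp51 there, 0.32 and 0.31, were larger than those of 0.11 and 0.13 on MG-U74A. No member was called on both array types, and none of those called on MG-U74A had a tested probe set on MG-U74B.

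Among 14 other genes of the pathway no fall passed the test. On MG-U74A 10 had a probe set and 8 were tested. Of these, limma called 0 lower at adjusted p under 0.05 (1 at an unadjusted p under 0.05) and 1 higher, beside 29.0% lower and 23.9% higher among all tested probe sets. That gene was Lbr, an inner nuclear membrane protein with sterol reductase activity, with 424 and 437 in knock-out and 238 and 232 in wild type (0.81 ± 0.07, adjusted p = 0.00205). Mvd, which decarboxylates mevalonate diphosphate, had 117 and 109 in knock-out and 30.5 and 65.2 in wild type, a change of 0.97 ± 0.30 (adjusted p = 0.0569). Mvd passed the filter on low values only through the knock-out arrays, as did Sc5d (means of 86.9 in knock-out and 59.2 in wild type). Tm7sf2, the other reductase of the step of Lbr, changed by -0.35 ± 0.12 (adjusted p = 0.0789). The median of the 8 genes, Mvd and Sc5d among them, was 0.24. On MG-U74B 5 of 6 were tested, with 0 lower (2 at an unadjusted p under 0.05) and again Lbr higher (1127 and 1014 in knock-out, 542 and 585 in wild type, 0.90 ± 0.14, adjusted p = 0.0189). Among all tested probe sets of MG-U74B 8.87% were lower and 8.59% higher. Lbr was the 1 gene of this list called on either array type, and it rose on both. On MG-U74B its call ended without a variance trend and when any 1 of the 4 arrays was left out. Ggps1, which makes geranylgeranyl diphosphate for prenylation, was at 90.6 and 69.1 in knock-out and 334 and 190 in wild type on MG-U74B, and did not pass (-1.41 ± 0.41, adjusted p = 0.0810). Its other tested probe sets went both ways, and none passed. They changed by -1.29 ± 0.44 and 0.31 ± 0.41 on MG-U74B and by -0.21 ± 0.13 and 0.34 ± 0.20 on MG-U74A.

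**Figure D3:**
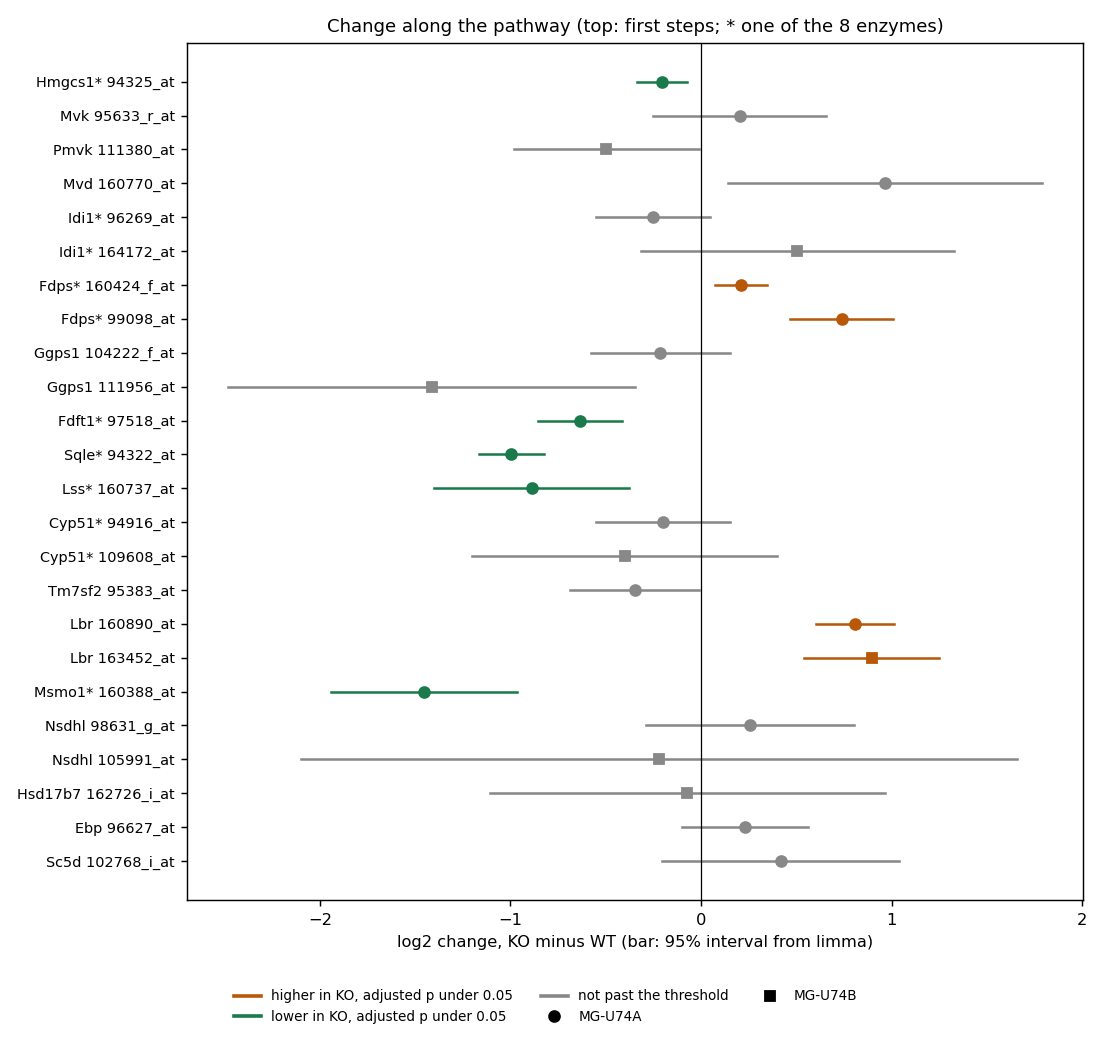
Log2 change, knock-out minus wild type (horizontal axis), with its 95% interval from limma, for the tested probe sets of the 8 enzymes (asterisks) and 1 probe set for each other pathway gene and array type, ordered from early to late steps; circles are MG-U74A and squares MG-U74B. Fdft1, Sqle, Lss and Msmo1 are lower, while Fdps and Lbr are higher.

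Of the 10 listed genes that regulate the pathway 5 were tested on MG-U74A, of which 3 were lower and 1 higher, beside 29.0% lower, 23.9% higher and 52.9% in either direction among all tested probe sets. Srebf1, which encodes SREBP-1, a factor of lipid and sterol synthesis genes, had 506 and 673 in knock-out and 1212 and 1218 in wild type (-1.03 ± 0.14, adjusted p = 0.00659). Mbtps1, the protease that makes the first cut in SREBPs, had 401 and 410.2 in knock-out and 665 and 684 in wild type (-0.70 ± 0.06, adjusted p = 0.00144). The nuclear factor Y subunits went apart, with Nfyc at -0.33 ± 0.05 (adjusted p = 0.00995) and Nfya at 0.71 ± 0.15 (adjusted p = 0.0189), while Nfyb, at -0.25 ± 0.10, did not pass (adjusted p = 0.107). On MG-U74B 1 of 5 tested regulators was lower and 0 were higher (2 lower and 0 higher at an unadjusted p under 0.05), a share near the 17.5% called among all tested probe sets. It was Scap, the sterol-sensing escort of SREBPs, with 1172 and 927 in knock-out and 1829 and 1771 in wild type (-0.77 ± 0.15, adjusted p = 0.0312). This call ended with no filter on low values, without a variance trend and without wild type replicate 1, wild type replicate 2 or knock-out replicate 2. Insig1, which retains SREBPs in the endoplasmic reticulum and is itself an SREBP target, had 173 and 210.0 in knock-out and 369 and 461 in wild type, just short of the threshold (-1.02 ± 0.25, adjusted p = 0.0554). It passed with quantile normalization, with a higher filter on the mean and with median centring. Srebf2, the main factor of cholesterol synthesis genes, had 1 probe set, on MG-U74B, whose mean over the 4 arrays was 37.5, too low to be tested.

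Genes of cholesterol uptake, storage, transport and efflux went both ways on MG-U74A, where 5 of 10 tested were lower and 3 higher, beside 29.0% and 23.9% of all tested probe sets. Osbp, an oxysterol-binding lipid transfer protein, had 336 and 250.9 in knock-out and 607 and 564 in wild type (-0.95 ± 0.15, adjusted p = 0.00948). It was lower on MG-U74B too, with 16.9 and -6.00 in knock-out and 159 and 218 in wild type (adjusted p = 0.0362). That size depends on the added constant, and the call ended under several settings. On MG-U74B Osbp also passed the filter on low values only through the wild type arrays, where it was higher. Lrpap1, a chaperone of lipoprotein receptors, and Abcg1, a sterol exporter, changed by -0.74 ± 0.10 (adjusted p = 0.00542) and -0.55 ± 0.08 (adjusted p = 0.00691), and the lysosomal exporter gene Npc1 by -0.30 ± 0.07 (adjusted p = 0.0256). The exporter gene Abca1 was lower by little (-0.19 ± 0.06, adjusted p = 0.0481), and its other tested probe set was at -0.02 ± 0.23 (adjusted p = 0.958). Higher were Npc2, the lysosomal partner of Npc1, with 3874 and 3767 in knock-out and 2007 and 2008 in wild type (0.92 ± 0.03, adjusted p = 2.57e-04), and the lipoprotein receptor gene Scarb1 (0.40 ± 0.07, adjusted p = 0.0135). Nr1h3, the oxysterol receptor LXR alpha, had 235 and 157.5 in knock-out and 31.3 and 37.6 in wild type (1.88 ± 0.24, adjusted p = 0.00532). Its size depends on the added constant, and it passed the filter on low values only through the knock-out arrays. All 7 tested macrophage markers were higher on the same arrays. The part of macrophages in the rises and falls of this list was not tested. On MG-U74B Osbp was the 1 called gene of 4 tested, beside 17.5% of all tested probe sets. Stard4, a soluble sterol carrier and SREBP target, did not pass on its brighter probe set (0.57 ± 0.16, adjusted p = 0.0732), while its dimmer one was higher (1.20 ± 0.23, adjusted p = 0.0316).

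**Figure D4:**
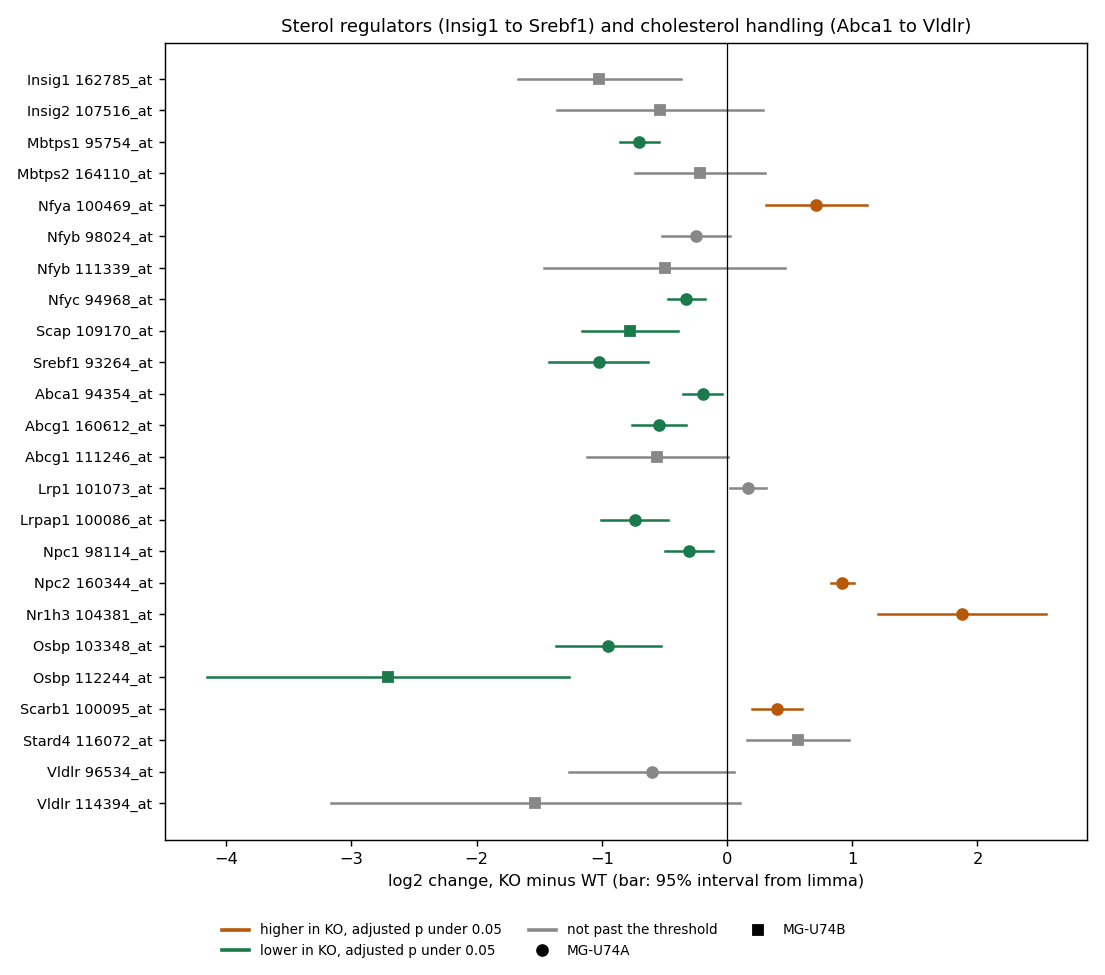
Log2 change, knock-out minus wild type (horizontal axis), with its 95% interval from limma, for sterol regulators and for genes of cholesterol handling, 1 probe set for each gene and array type; circles are MG-U74A and squares MG-U74B. Srebf1, Mbtps1 and Scap are lower, whereas Npc2, Nr1h3 and Scarb1 are higher.

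The genes with the pattern closest to the brightest member on each array type were found by the Euclidean distance between log2 values centred on each probe set, over 4 arrays. On MG-U74A the closest to Hmgcs1 of 6731 probe sets compared were Llgl1, Slc30a3 and Trim28, at distances of 0.0148 to 0.0163. On MG-U74B the closest to Cyp51 were Pkn2, Lamb2 and Zfp628, at 0.0455 to 0.0554 among 6947 probe sets. With 4 arrays many probe sets have a like pattern, and these are a description of the arrays only.

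Leaving out wild type replicate 1 left 3 of the 5 falls on MG-U74A past the threshold and leaving out replicate 2 left 2, in a fit where the lone array is assumed to vary like the knock-out pair. Calls over all probe sets fell in the same fits, to 2311 and 2264 against 3974 with all arrays. The sizes of the falls hardly moved without a wild type array, and those of Lss and Msmo1 moved more without a knock-out array, to -0.70 and -1.07 for Lss and to -1.22 and -1.69 for Msmo1.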

How the data were processed

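RNA of pancreatic islets was measured on Affymetrix MG-U74A and MG-U74B arrays, with 2 knock-out and 2 wild type arrays of each type, grouped by their titles. The deposited files hold 1 linear intensity for each probe set, and the authors had scaled each array to a common mean (without the highest and lowest 2%). The software was not given in the sources used here. Each array was multiplied by 1 factor to equal trimmed means, negative values were replaced by 0, 25 was added, and the log2 was formed. Probe sets with a mean under 25% of the trimmed mean and 66 control probe sets of each type were not tested. Knock-out was compared with wild type on each type by limma 3.58.1 in R 4.3.3 (lmFit, eBayes with a variance trend, two-sided, Benjamini-Hochberg within the type, threshold 0.05). An exact permutation test of 2 against 2 cannot go below p = 0.333, so p-values rest on limma's pooling across probe sets. Some of the spread they rest on may be technical, and the number of arrays limits precision. Symbols came from the array annotation, updated through GRCm38.p6 gene identifiers (10839 of 10855 single-symbol probe sets on MG-U74A and 10572 of 10603 on MG-U74B). The members were named in full, and genes of the lists stand by their tested single-symbol probe set with the highest mean and were named where they passed the threshold. Mvd, Sc5d, Tm7sf2, Ggps1, Insig1, Nfyb, Srebf2 and Stard4 were named after their values were seen. The members and lists were chosen with earlier results of these data known. The procedure was tested on simulated data. The alternatives were other constants, quantile normalization, other filters, no variance trend, a replicate block, leaving out each array and, chosen after seeing the data, median centring.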

Additional observations from a re-analysis of the deposited data

How the results depend on the processing

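Under 12 alternative settings no member probe set changed direction. Only quantile normalization and median centring could have changed it. The filters, the variance trend and the block leave the size of a change as it is. Other constants and leaving out an array cannot turn it where the knock-out arrays lie outside the wild type arrays, as for all tested members. Sqle, Msmo1 and Fdps 99098_at stayed past the threshold in all 12, and Cyp51 and the MG-U74B probe set of Idi1 stayed short of it in all 12. Member falls on MG-U74A numbered 5, or 2 to 6 leaving out single arrays. Member rises numbered 2, but 1 without a variance trend, 1 with the replicate block, and 1 to 2 leaving out single arrays. Replicates of the same number did not deviate together (correlation 0.024 on MG-U74A and 0.032 on MG-U74B), and with the block the calls of Hmgcs1 (adjusted p = 0.0663) and Fdps 160424_f_at (0.0619) ended. All called probe sets numbered 3974 on MG-U74A (2264 to 4097 leaving out arrays) and 1372 on MG-U74B (764 with no filter, 638 without a variance trend, 0 to 538 leaving out arrays, 0 without either wild type array). Leaving out arrays gave on MG-U74A 1 to 2 called other pathway genes (2 with a constant of 50), 2 to 4 regulators and 4 to 10 handling genes. On MG-U74B, where 1 of each list was called, it gave 0 other pathway genes (also 0 without a variance trend), 0 to 1 regulators and 0 handling genes. Regulators there numbered 2 with quantile normalization, 2 with the higher filter, 2 with median centring, 0 with no filter and 0 without a variance trend. Handling genes there numbered 0 with no filter, 0 with the higher filter and 0 with the replicate block. The cause of these shifts was not tested. Signals near or below 0 limit Lss and the 3 untested member probe sets.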
